A study of Mus musculus with 6 samples.

Results

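The respiratory chain genes of mouse gastruloids were compared between Control (NT) and *T-UCstem1* KD-1 aggregates. Members were the protein-coding rows of the count table whose symbol marks a gene of complexes I to V (Nduf, Uqcr, Cox4 to Cox8, Atp5, mt-Nd, mt-Co, mt-Cytb, mt-Atp, Sdha to Sdhd and Cyc1). The rule found 111 rows with 110 symbols among 35565 rows, of which 98 were nuclear and 13 were encoded in mitochondrial DNA. By complex, the nuclear and mitochondrial rows numbered 45 and 7 for complex I, 4 and 0 for complex II, 9 and 1 for complex III, 21 and 3 for complex IV, and 19 and 2 for complex V. Each row was given a role from general knowledge of the chain. There were 90 structural subunits (13 of them mitochondrial), 8 complex I assembly factors, 8 tissue isoforms, 3 copies of other members, 1 supercomplex factor (Cox7a2l) and 1 inhibitor (Atp5if1).

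Gastruloids are aggregates of embryonic stem cells that elongate and form the derivatives of the germ layers in culture. All 6 libraries came from aggregates at day 5, 3 per group, made from the mouse embryonic stem cell line mESCs TBV2 129/SvP. Both groups had received a pulse of CHIR99021, a GSK3 inhibitor that activates WNT signalling. Control (NT) carried a non-targeting construct per the study's methods, whereas its labels give the genotype as WT. KD-1 is 1 clone silenced for the ultraconserved long non-coding RNA *T-UCstem1*, and the level of that RNA was not analysed here. As each group came from 1 line, differences between the lines other than the silencing enter the same comparison and cannot be told apart from it.

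The chain passes electrons from NADH (complex I) and succinate (complex II) through coenzyme Q, complex III and cytochrome c to oxygen at complex IV, and complex V makes ATP from the proton gradient. Complex II is wholly nuclear-encoded, and the other complexes combine nuclear subunits with a few made from mitochondrial DNA. The balance of glycolysis and respiration differs between stem cell states and changes as cells differentiate, and neither was measured here. The mitochondrial genes are transcribed as long precursors from both strands, so their RNA levels also depend on processing and decay.

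The libraries held 20982249, 34694406 and 56674906 counts for Control and 41180012, 42407550 and 85561026 for KD-1. Below, 6 values are given in the order lowest, middle and highest depth, Control first, in CPM (counts scaled to library size with TMM factors, a level not corrected for gene length). Genes were tested with edgeR's quasi-likelihood test, log2 fold changes (KD-1 over Control) are given ± SE, and p-values were adjusted over 15110 genes. Calls required an adjusted p below 0.05 together with a change beyond 1.5-fold, and the count at the adjusted p alone is given beside them. The 13 mitochondrial genes took 6.15% to 7.62% of all counts. Naive pluripotency markers were higher in KD-1 (9 of 9 called, summed level 1508 to 1613 CPM in Control and 3759 to 3839 in KD-1). Somite and paraxial mesoderm markers were lower (8 of 8 called, 480.4 to 560.0 CPM against 4.58 to 5.16), and no gene of either list was at 0 in all libraries of a group. Neural markers were also higher (4 of 5 called, 144 to 157 CPM against 261 to 268). The part of these differences in the results below was not tested. In bulk RNA, fewer cells of a type and less RNA per cell cannot be told apart.

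Most nuclear subunits had less RNA in KD-1, with complex I at the lowest median of the 5 complexes. Of the 105 members tested, 32 were called lower and 2 higher, where 18.1% of all genes tested were called lower and 19.7% higher. At the adjusted p alone, 70 members were lower and 9 higher, against 32.6% and 30.9% of all genes, and 26 members did not pass. The other 6 members (Cox4i2, Cox6a2, Cox7b2, Cox8b, Cox8c and Cox5b-ps) had too few counts to be tested. The 3 values of one group did not overlap those of the other in 78 members, and in 70.6% of all genes. Over the 77 nuclear structural subunits the median log2 fold change was -0.51, where that of all genes was -0.01. Among them 28 (36.4%) were called lower and 1 (Ndufs1) higher, and 58 were lower and 5 higher at the adjusted p alone. The 13 mitochondrial genes had a median of -0.19, with none called.

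**Figure D1:**
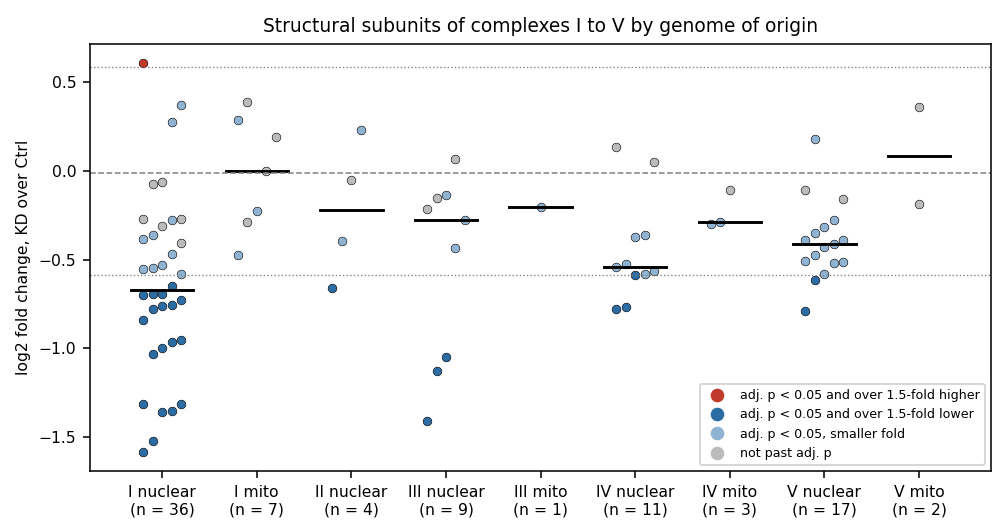
Log2 fold change (KD-1 over Control, y axis) of each structural subunit, by complex and genome of origin (x axis). Bars are medians, the dashed line is the median of all genes and the dotted lines mark 1.5-fold. The nuclear subunits of complex I spread from -1.58 to 0.60 around a median of -0.67, and no mitochondrial gene passes the dotted lines.

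By complex, the medians for nuclear subunits were -0.67 (complex I, 36 genes), -0.22 (II, 4 genes), -0.28 (III, 9 genes), -0.54 (IV, 11 genes) and -0.41 (V, 17 genes). Called lower were 19 (52.8%), 1 (25%), 3 (33.3%), 3 (27.3%) and 2 (11.8%) of them, against 18.1% of all genes tested. The share in complex V was thus below that of all genes. The summed level of the 77 nuclear subunits was 13040, 15394 and 13985 CPM in Control and 11209, 10759 and 10791 in KD-1, a difference of -22.8% without overlap. The sums of complexes I, III, IV and V differed by -26.7%, -22.5%, -30.7% and -17.4%, and that of complex II by -9.94%, again without overlap between the groups. These sums are descriptions and carry no test.

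**Figure D2:**
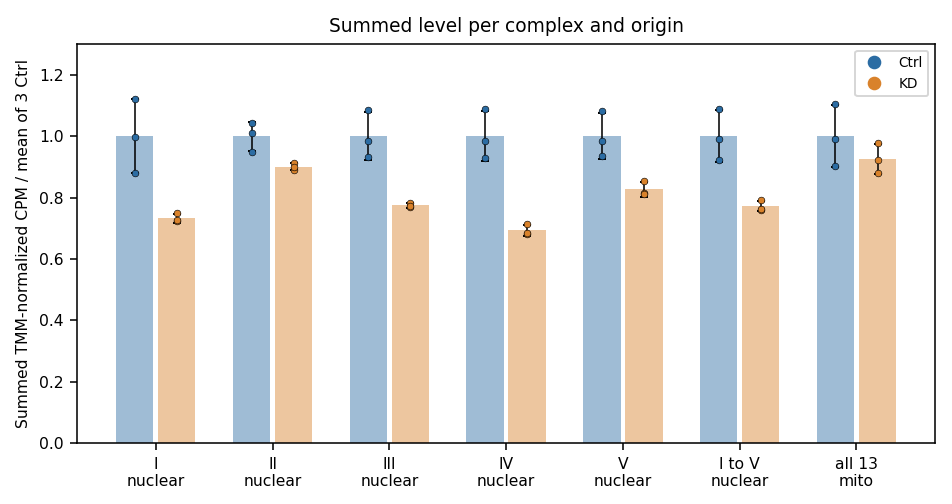
Summed level per complex and origin, as TMM-normalized CPM over the mean of the 3 Control libraries (y axis). Bars are means of 3 libraries, error bars are SD and points are libraries. The nuclear sums of the 5 complexes lie below Control in every KD-1 library, while the sum of the 13 mitochondrial genes overlaps between the groups.

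The size of these differences ran with transcript length and GC content across the whole transcriptome. Transcripts of nuclear subunits are short, with a median of 1179 bp against 3395 bp for all genes tested. Among other protein-coding genes the median log2 fold change was -0.85 for transcripts under 600 bp, -0.44 from 600 bp to under 1000 bp, -0.25 from 1000 bp to under 2000 bp, -0.04 from 2000 bp to under 4000 bp, and 0.12 at 4000 bp or more. The nuclear subunits in the same bins (15, 20, 22, 15 and 5 genes) had medians of -0.62, -0.64, -0.47, -0.16 and -0.31. Under 600 bp the subunits therefore had the higher median, and in the other 4 bins the lower one. In the highest GC class (55% or more) other genes had a median of -0.40 and subunits -0.70, and in the lowest (under 45%) 0.29 and -0.37.

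**Figure D3:**
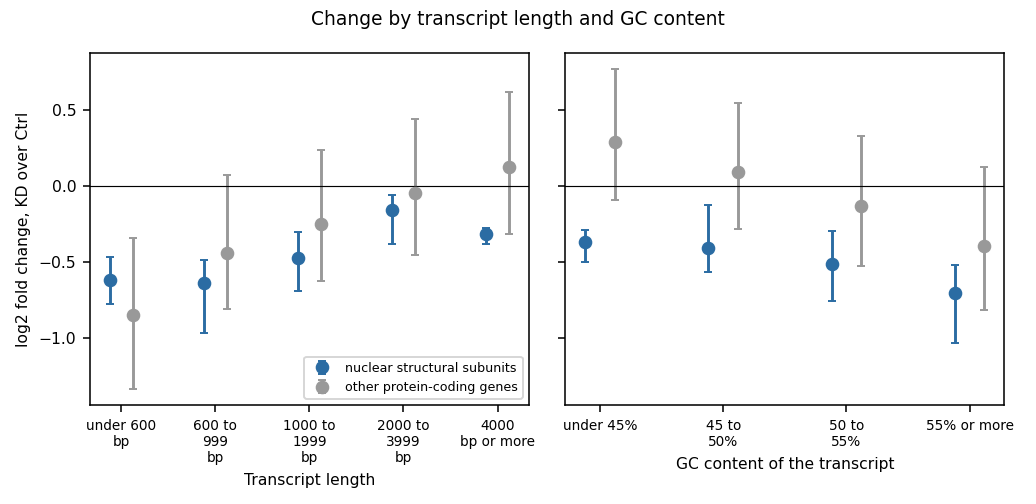
Median log2 fold change (KD-1 over Control, y axis) by annotated transcript length (left) and GC content (right), for nuclear structural subunits (blue) and other protein-coding genes (grey). Bars span the quartiles. Subunits of 600 bp or more and of every GC class lie below the other genes of their bin, and those under 600 bp do not.

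With the trend over length and GC content taken out of each library, 14 of the 77 nuclear subunits were called lower, against 14.5% of all genes. Their median was -0.29. At the adjusted p alone 51 were lower, and the share of all genes lower at that limit in this alternative is not given here. This alternative was chosen after the data had been seen. In complex I, 10 of 36 were called lower and the median was -0.36. The medians of complexes II, III, IV and V were -0.20, -0.30, -0.080 and -0.19. Called lower were 0 of 4, 2 of 9, 1 of 11 and 1 of 17 of their nuclear subunits. Of the 13 mitochondrial genes, 6 were called lower in this alternative, with a median of -0.54. The Control library of middle depth also stood apart from the other Control libraries. It held the highest of the 3 Control values for 61 of the 77 nuclear subunits, and its median deviation from the Control mean was 0.20 on the log2 scale. Other coding genes under 1000 bp deviated in the same library by 0.12. Without it, 19 of the 77 were called lower (17.3% of all genes), with a median of -0.44, and Ndufs1 was no longer called.

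Complex I takes electrons from NADH through a core that carries the redox centres, surrounded by supernumerary subunits. Of the 29 supernumerary subunits, 17 (58.6%) were called lower, against 18.1% of all genes tested. At the adjusted p alone 23 (79.3%) were lower, against 32.6% of all genes (median -0.69). Of the 7 nuclear core subunits, 2 (28.6%) were called lower and 1 (14.3%) higher (median -0.53). The shares of all genes were 18.1% and 19.7%, and 7 genes are few for such a comparison.

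Ndufa2 and Ndufa13 had the lowest log2 fold changes of the structural subunits. Ndufa2 (a supernumerary subunit, chr18:36875383-36877618 in GRCm39) had 70.9, 105.8, 93.1, 31.2, 29.4 and 29.8 CPM, a log2 fold change of -1.58 ± 0.13 (SE, adjusted p = 1.4e-05). Ndufa13 (chr8:70346808-70355872), a subunit also known as Grim19, had 68.1, 111.1, 94.6, 32.2, 31.5 and 32.2 CPM (log2 fold change -1.52 ± 0.15, adjusted p = 4.3e-05). In both genes all 3 KD-1 libraries lay close together and far below the lowest Control library.

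Ndufb7 (chr8:84293300-84298255) had 59.3, 80.4, 69.8, 29.3, 25.8 and 26.9 CPM (-1.36 ± 0.11, adjusted p = 1.3e-05). Ndufb11, an X-linked supernumerary subunit (chrX:20481563-20484457), had 101.1, 144.7, 117.1, 50.8, 47.0 and 48.3 CPM (-1.31 ± 0.12, adjusted p = 2.3e-05). Ndufa7 had 101.3, 156.6, 118.9, 54.3, 50.4 and 47.4 CPM (-1.31 ± 0.14, adjusted p = 7.1e-05). These genes again had no overlap between groups, and all kept their call with length and GC content taken out (-0.59 for Ndufb7, -0.91 for Ndufb11 and -0.87 for Ndufa7). The other supernumerary subunits called lower lay between -1.03 and -0.65. They were Ndufb10 (-1.03), Ndufb6 (-0.999), Ndufa6 (-0.96), Ndufa11 (-0.95), Ndufc1 (-0.84), Ndufa8 (-0.76), Ndufa3 (-0.75), Ndufb4 (-0.73), Ndufv3 (-0.70), Ndufa1 (-0.69), Ndufb8 (-0.69) and Ndufb5 (-0.65). Of these 12, only Ndufb6 and Ndufc1 stayed past the fold rule with length and GC content taken out. The row Ndufb4c, annotated as a pseudogene and identical to Ndufb4 over its whole length, held 60.8% of the counts of both rows, and with similar pseudogene rows added Ndufb4 had -0.75.

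Among the core subunits, Ndufs7 (chr10:80084941-80095049), which carries the last iron-sulphur cluster before coenzyme Q, had 18.1, 32.2, 23.5, 10.5, 9.01 and 9.53 CPM (-1.35 ± 0.19, adjusted p = 0.00026). Ndufs8, another iron-sulphur subunit, had 51.1, 69.5, 58.3, 34.8, 34.6 and 35.0 CPM (-0.78 ± 0.10, adjusted p = 0.00023), and -0.20 with length and GC content taken out. Ndufv1 and Ndufv2 of the NADH-binding module were lower at the adjusted p alone (-0.58 and -0.53), with Ndufv1 just outside the fold rule. Ndufs1, the largest iron-sulphur subunit (chr1:63182058-63216236), was higher, with 177.1, 152.9, 164.7, 242.3, 251.5 and 257.6 CPM (0.60 ± 0.07, adjusted p = 7.1e-05). All its KD-1 values were above all its Control values. With length and GC content taken out, Ndufs1 had 0.43 and lost its call.

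Ndufs1 lies on chromosome 1, as do Ndufa10 (0.28), Ndufb3 (-0.07), Cox5b (0.05) and Sdhc (0.23). The 6 structural subunits on this chromosome had a median of 0.25, and none was called lower. Genes of chromosome 1 as a whole stood apart in KD-1. Their median was 0.49 over 871 genes tested, with 40.2% called higher and 7.81% lower. The 14239 genes elsewhere had a median of -0.04, with 18.4% called higher and 18.7% lower. The median of the 6 subunits was thus lower than that of their chromosome. Off chromosome 1, all 32 nuclear subunits of complex I had negative log2 fold changes (median -0.70). At the adjusted p alone 27 of them (84.4%) were lower, against 33.8% of all genes off this chromosome. The part of this chromosome-wide difference in the members' values was not tested.

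The promoters of the nuclear members were searched for the letters bound by 3 factors known to drive respiratory genes: NRF1 (CGCATGCG), GABPA (CCGGAAG) and YY1 (AAGATGG), on both strands. RefSeq promoters of 300 bases (250 before and 50 after the start, GRCm38.p6) were matched for 75 of 95 members, copies left out. NRF1 letters were in 14.7% of them and in 2.07% of all 27025 genes with a promoter, GABPA letters in 24% and 9.93%, and YY1 letters in 16% and 7.28%. Among the 17492 protein-coding genes with a promoter the shares were 2.77%, 12.9% and 7.18%. At least 1 of the 3 was in 15 of the 27 matched members called lower (55.6%) and in 19 of the 46 other tested members (41.3%). A match is only a run of letters, and binding was not measured. The 150 bases before the start are shown for the members of lowest log2 fold change with a match wholly inside these 150 bases, a pair for NRF1 and a pair for GABPA, and for Atp5pf, the only member with a YY1 match there. Capitals mark the matches.
Ndufa11, chr17:56717612-56717761, plus strand: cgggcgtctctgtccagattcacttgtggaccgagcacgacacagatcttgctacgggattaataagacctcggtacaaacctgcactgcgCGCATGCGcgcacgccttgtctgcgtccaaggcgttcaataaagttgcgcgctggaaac
Ndufa8, chr2:36049339-36049488, minus strand: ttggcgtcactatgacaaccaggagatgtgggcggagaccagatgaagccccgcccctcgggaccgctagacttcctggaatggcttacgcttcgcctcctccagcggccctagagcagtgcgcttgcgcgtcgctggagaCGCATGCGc
Ndufaf8, chr11:120098784-120098933, plus strand: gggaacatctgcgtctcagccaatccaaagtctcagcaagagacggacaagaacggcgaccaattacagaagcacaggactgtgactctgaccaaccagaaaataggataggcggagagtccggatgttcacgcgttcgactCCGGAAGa
Uqcr11, chr10:80406822-80406971, minus strand: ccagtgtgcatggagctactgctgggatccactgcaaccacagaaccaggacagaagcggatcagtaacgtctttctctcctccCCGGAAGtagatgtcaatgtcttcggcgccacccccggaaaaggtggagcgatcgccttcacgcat
Atp5pf, chr16:84834977-84835126, minus strand: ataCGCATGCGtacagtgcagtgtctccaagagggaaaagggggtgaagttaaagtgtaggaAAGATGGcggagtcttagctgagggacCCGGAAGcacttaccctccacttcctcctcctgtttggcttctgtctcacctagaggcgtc

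Of the genes of these factors, Nrf1 had 45.6 ± 1.85 CPM in Control and 46.2 ± 1.76 in KD-1 and did not pass the test (SD, n = 3, log2 fold change 0.02, adjusted p = 0.83 by edgeR). Gabpa was called higher (0.65, adjusted p = 3.2e-05) and Yy1 was higher at the adjusted p alone (0.50, adjusted p = 7.1e-05). Both were named because their motifs had been searched. Ndufa11 and Ndufa8, whose promoters hold NRF1 letters, had 74.7, 81.7, 83.8, 46.1, 39.7 and 38.7 CPM and 28.3, 36.3, 38.9, 21.8, 20.04 and 19.7 CPM. Atp5pf, for which 1 of 2 listed promoters holds all 3 motifs and the other none, had 290.6, 312.4, 310.1, 289.2, 278.2 and 278.9 CPM and did not pass the test (-0.11, adjusted p = 0.11).

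**Figure D4:**
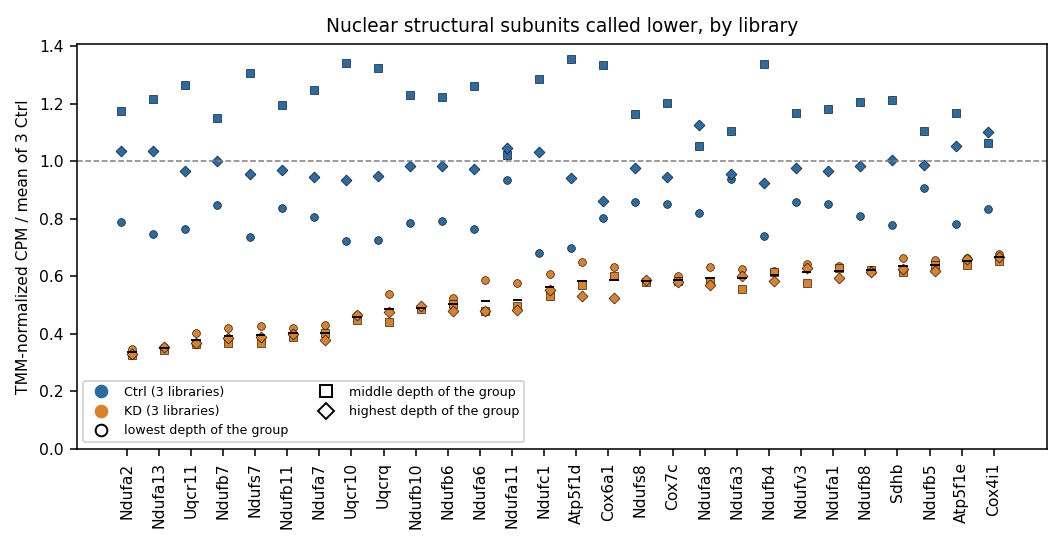
Level of each of the 28 nuclear structural subunits called lower in every library, as TMM-normalized CPM over the mean of the 3 Control libraries (y axis). Marker shape gives the depth of the library in its group and black bars are KD-1 means. Every KD-1 value lies below every Control value of its gene, and the Control library of middle depth is the highest Control point for most genes.

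The 8 complex I assembly factors help to build the complex without staying in it. Ndufaf8 had 2.32, 6.87, 3.66, 1.43, 1.26 and 1.55 CPM (-1.60 ± 0.35, adjusted p = 0.0038) and was the only one called. Ndufaf4 had 56.4, 58.6, 49.8, 77.5, 77.2 and 82.3 CPM and was higher at the adjusted p alone (0.53 ± 0.07, adjusted p = 0.0003). The median over the 8 factors was -0.23.

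Complex II (succinate dehydrogenase) links the citric acid cycle to the chain. Its flavin subunit Sdha had 240.0, 219.4, 249.4, 234.7, 224.4 and 225.7 CPM, with overlap (-0.05 ± 0.06, adjusted p = 0.50). The iron-sulphur subunit Sdhb had 67.1, 104.5, 86.6, 57.1, 52.8 and 53.8 CPM and was called lower (-0.66 ± 0.14, adjusted p = 0.0027). That call ended without the Control library of middle depth (-0.51) and with length and GC content taken out (-0.58). The membrane anchors went opposite ways. Sdhc had 117.4, 113.4, 126.5, 138.2, 141.0 and 139.4 CPM (0.23 ± 0.06, adjusted p = 0.008), and Sdhd had 160.6, 186.2, 179.8, 133.2, 131.0 and 135.7 CPM (-0.40 ± 0.07, adjusted p = 0.00078). On a scale per transcript length the sum of the 4 genes was 480.8 in Control and 480.9 in KD-1, with overlap, so the lower complex II sum was not seen on that scale.

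Complex III (cytochrome bc1) passes electrons from coenzyme Q to cytochrome c. Its subunits Uqcr11, Uqcr10 and Uqcrq were called lower. Uqcr11 (chr10:80236542-80242676) had 59.7, 98.7, 75.5, 31.4, 28.5 and 28.6 CPM (-1.41 ± 0.16, adjusted p = 8.7e-05), and its value was -1.38 with length and GC content taken out. Uqcr10 had 86.6, 160.2, 111.8, 55.5, 53.6 and 55.5 CPM (-1.13 ± 0.19, adjusted p = 0.00078), and Uqcrq had 32.8, 59.8, 42.7, 24.3, 19.9 and 21.4 CPM (-1.05 ± 0.19, adjusted p = 0.0013). With length and GC content taken out, Uqcr10 had -0.43 and lost its call, and Uqcrq had -0.92. The nuclear redox subunits were not past the test. Cyc1 (cytochrome c1) had 92.1, 99.5, 99.3, 106.4, 103.1 and 95.8 CPM (0.07, adjusted p = 0.36), and the Rieske protein Uqcrfs1 had -0.16 (adjusted p = 0.15). With length and GC content taken out, Cyc1 was higher at the adjusted p alone (0.45, adjusted p = 0.0001).

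Complex IV (cytochrome c oxidase) reduces oxygen. Of its 11 nuclear structural subunits, Cox6a1, Cox7c and Cox4i1 were called lower and 9 were lower at the adjusted p alone. Cox7c (chr13:86189246-86195023) had 442.7, 625.1, 491.6, 311.6, 303.1 and 301.5 CPM (-0.77 ± 0.11, adjusted p = 0.00042). Cox6a1 had 26.1, 43.3, 28.0, 20.6, 19.5 and 16.98 CPM (-0.78 ± 0.18, adjusted p = 0.005). Cox4i1 had 240.8, 306.5, 317.7, 195.3, 188.8 and 192.6 CPM (-0.59 ± 0.10, adjusted p = 0.00084), just inside the 1.5-fold limit, with Cox6c (-0.58) just outside it. With length and GC content taken out, Cox6a1 had -0.0073 and Cox4i1 0.091, and neither passed the test (adjusted p = 0.95 and 0.34), and Cox7c had -0.54 and lost its call. Cox5a had the highest log2 fold change of these nuclear subunits (59.7, 89.9, 60.7, 84.8, 72.3 and 74.0 CPM, 0.13, adjusted p = 0.46), with the groups overlapping. Cox7a2l, which joins complexes III and IV into supercomplexes, was called lower (244.2, 312.1, 297.1, 178.4, 183.0 and 173.1 CPM, -0.68, adjusted p = 0.00021), but not with length and GC content taken out (-0.39).

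Several complex IV subunits have tissue isoforms, so the share of the isoform in each pair was computed from levels per transcript length. Cox6b2, known from testis, was 11.2%, 11.2% and 10.9% of the Cox6b pair in Control and 14.2%, 14.1% and 13.2% in KD-1. Its partner Cox6b1 was lower at the adjusted p alone (-0.56), and so was Cox6b2 (-0.20, adjusted p = 0.031), which had 0.42 with length and GC content taken out. Cox7a1, the heart and muscle isoform, was 1.80% to 2.08% of its pair with Cox7a2 in Control and 2.03% to 2.61% in KD-1, with overlap. Cox7a1 itself did not pass the test (-0.18, adjusted p = 0.35), whereas Cox7a2 was lower at the adjusted p alone (-0.36). Cox7b2 had no count in Control and 11, 9 and 27 counts in KD-1. Taking 3 counts per Control library as the limit, it was at least 2.71-fold higher, and it was not tested. Its partner Cox7b was lower at the adjusted p alone (-0.52).

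The other tissue isoforms of complex IV were at or near 0 in both groups, apart from Ndufa4l2 in Control. Cox4i2 had 0, 3 and 1 counts in Control and 0, 0 and 1 in KD-1, Cox6a2 and Cox8b 1 count each in Control and none in KD-1, and Cox8c 1 count in KD-1. Cox8a, the common form, had -0.37 (adjusted p = 0.039) but 0.38 with length and GC content taken out (adjusted p = 0.00082). Ndufa4, now assigned to complex IV, was lower at the adjusted p alone (-0.54), and its hypoxia-induced relative Ndufa4l2 had 7, 12 and 24 counts in Control and 1, 0 and 5 in KD-1 (-3.42 ± 0.69, adjusted p = 0.0024).

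Complex V (ATP synthase) had 17 nuclear structural subunits between -0.79 and 0.18. Atp5f1b, the catalytic beta subunit, was higher at the adjusted p alone, with 858.5, 917.1, 874.2, 1045, 996.1 and 961.0 CPM (0.18 ± 0.06, adjusted p = 0.023). Atp5f1d of the central stalk had 30.2, 58.5, 40.7, 28.0, 24.6 and 22.9 CPM and was called lower (-0.79 ± 0.21, adjusted p = 0.009), as was its neighbour in the stalk Atp5f1e (86.5, 129.5, 116.7, 73.6, 70.7 and 73.3 CPM, -0.62 ± 0.13, adjusted p = 0.0027). With length and GC content taken out these values were -0.38 and 0.024. Atp5if1, which inhibits the reverse reaction of the enzyme (chr4:132257215-132262823), had 217.6, 303.2, 255.0, 132.8, 126.0 and 125.6 CPM (-1.01 ± 0.11, adjusted p = 6.2e-05), and -0.48 in that alternative. Of the 17, 14 were lower at the adjusted p alone, including the peripheral stalk subunits Atp5pb (-0.58) and Atp5po (-0.51).

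The 13 mitochondrial genes ranged from -0.48 to 0.38 in log2 fold change. Their summed level was 77096, 69118 and 62947 CPM in Control and 68137, 61349 and 64197 in KD-1, with overlap (-7.40%). By complex, the mitochondrial sums of complexes I and V differed by 9.99% and 6.52% with overlap. That of complex IV differed by -15.5% without overlap. On the scale per transcript length, complexes I and V differed by 30.0% and 36.2% without overlap, and complex IV by -0.90% with overlap. These sums carry no test. No gene was called. At the adjusted p alone mt-Nd1 was higher, and mt-Nd6, mt-Co3, mt-Co1, mt-Nd5 and mt-Cytb were lower. mt-Nd1 had 5391, 5004, 4319, 6297, 5593 and 6004 CPM (0.28 ± 0.09, adjusted p = 0.020). mt-Nd6, the only protein gene on the light strand, had the lowest log2 fold change, with 186.1, 186.8, 142.6, 141.7, 96.5 and 131.9 CPM (-0.48 ± 0.15, adjusted p = 0.022). mt-Co1 had 21040, 19940, 17820, 16850, 15440 and 15890 CPM (-0.29 ± 0.07, adjusted p = 0.0087).

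The highest log2 fold changes were those of mt-Nd4l (1404, 628.3, 1171, 1505, 1200 and 1476 CPM, 0.38, adjusted p = 0.22) and mt-Atp8 (5956, 3753, 4091, 5838, 5517 and 6358 CPM, 0.36, adjusted p = 0.072), neither past the test. Both are short (297 and 204 bp) and overlap the next gene, mt-Nd4 and mt-Atp6, so their reads cannot be told apart fully. The Control library of middle depth was lowest for both genes, opposite to its place for most nuclear subunits. A pseudogene row almost identical to mt-Nd3 held 58.7% of the counts of both rows, and with similar pseudogene rows added the median of the 13 genes was -0.052. In that setting mt-Nd3 turned from -0.29 to 0.16 (adjusted p = 0.25), and mt-Cytb no longer passed the test (-0.19, adjusted p = 0.058). With length and GC content taken out, 6 of the 13 were called lower, against 14.5% of all genes. These were mt-Nd2, mt-Nd3, mt-Nd5, mt-Nd6, mt-Co1 and mt-Atp6. In the same alternative 11 of the 13 were lower at the adjusted p alone, mt-Nd1 turned to -0.13 (adjusted p = 0.20), and the median was -0.54. The share of all genes lower at the adjusted p alone in this alternative is not given here.

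**Figure D5:**
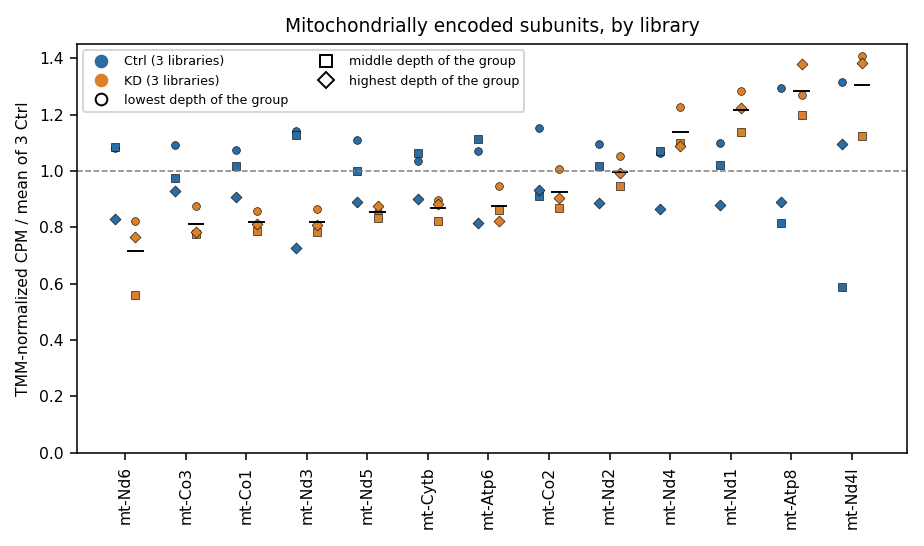
Level of each of the 13 mitochondrially encoded genes in every library, as TMM-normalized CPM over the mean of the 3 Control libraries (y axis), ordered by log2 fold change. Marker shape gives the depth of the library in its group and black bars are KD-1 means. mt-Nd6 lies furthest below Control and mt-Nd4l furthest above. The groups do not overlap for 7 of the 13 genes (53.8%), a lower share than among all genes tested (70.6%).

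The ratio of the mitochondrial to the nuclear sum was 5.91, 4.49 and 4.50 in Control and 6.08, 5.70 and 5.95 in KD-1, with overlap through the Control library of lowest depth. On the scale per transcript length the ratio was 8.25, 5.60 and 6 against 9.32, 8.83 and 9.47, without overlap. The mitochondrial sum on this scale was higher in KD-1 (161650 against 188420, 16.6%) with overlap. Most of that difference came from mt-Atp8 (means of 39600 and 58640), which is short, shares reads with mt-Atp6 and did not pass the test. The sum and ratio without mt-Atp8 are not given here. The direction of the mitochondrial sum thus depended on the scale, and that of the nuclear sum did not (-16.98% per length). On the same scale, Cox6c (1837 in Control and 1423 in KD-1), Ndufa4 (1698 and 1349) and Cox7c (1679 and 1146) had the highest levels of the nuclear subunits. Ndufb2 had the lowest level (6.88 and 6.44), with an annotated transcript of 4389 bp, and such ranks depend on the transcript taken for the length. The highest nuclear complex I subunit was Ndufa1 (367.7 and 265.0).

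A copy of Ndufb11 went the other way from its parent. Ndufb11b (chr15:81864741-81865764) had 1, 0 and 5 counts in Control and 78, 114 and 188 in KD-1 (log2 fold change 5.31 ± 0.51, adjusted p = 3.3e-05), and the size of this change depends on the small count added to Control. Per transcript length it made up 0.06% of the pair in Control and 6.30% in KD-1. Its reads can be shared with Ndufb11. The second row named Atp5po and Cox5b-ps, the other copies, had at most 24 and 19 counts in a library, and Atp5po's second row did not pass the test (adjusted p = 0.76).

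Genes around the chain were counted in the same fit. Of 51 assembly factors outside the rule, 11 (21.6%) were called lower and 3 (5.88%) higher, against 18.1% and 19.7% of all genes tested. At the adjusted p alone 23 (45.1%) were lower and 9 (17.6%) higher, against 32.6% and 30.9% of all genes (median -0.18). The largest changes were those of Fmc1 (complex V assembly, -1.46), Uqcc5 and Uqcc2 (complex III assembly, -1.44 and -1.29) and Fastkd5 (mitochondrial RNA processing, 1.27). Of 78 mitochondrial ribosomal proteins, 17 (21.8%) were called lower and 0 higher, with Mrpl53 (-1.22), Mrpl41 (-1.01), Mrpl52 (-0.83) and Mrps36 (-0.82) lowest. At the adjusted p alone 41 (52.6%) of them were lower and 6 (7.69%) higher (median -0.26).

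Genes for mitochondrial transcription, replication and RNA stability were mixed, with 6 of 31 (19.4%) called higher and 3 (9.68%) lower (median 0.22). Among all genes tested, 19.7% were called higher and 18.1% lower. Tfb2m, a transcription factor of mitochondrial DNA, was higher (1.103, adjusted p = 5e-06) and lies on chromosome 1, as does Fastkd2 (0.81). The mitochondrial RNA polymerase Polrmt was lower (11.8 ± 1.18 against 6.81 ± 0.49 CPM, SD, n = 3, -0.79, adjusted p = 0.00035 by edgeR), as was Hsd17b10, a subunit of mitochondrial RNase P (-0.83). Tfam, which packages mitochondrial DNA, did not pass (96.1 ± 3.40 and 104.4 ± 2.21 CPM, SD, n = 3, 0.12, adjusted p = 0.081 by edgeR). Of 16 tested regulators of respiratory gene expression, 5 (31.2%) were called higher and 3 (18.8%) lower (median 0.18). Myc was lower (-2.35), and Esrrb (1.87, also a pluripotency marker), Mycn (1.73) and Epas1 (1.05) were higher. Esrra was lower (-0.75, adjusted p = 0.00044), Ppargc1b did not pass (-0.32, adjusted p = 0.31), and Ppargc1a had at most 6 counts in any library and was not tested.

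Of 16 genes for cytochrome c and coenzyme Q synthesis, 3 (18.8%) were called higher and 1 (6.25%) lower (median -0.09). The shares of all genes tested were 19.7% and 18.1%. Cycs, the somatic cytochrome c, had 216.9 ± 23.2 and 207.5 ± 2.77 CPM (SD, n = 3, -0.06, adjusted p = 0.49 by edgeR). Coq7 was lower (-0.71), and Coq10b (1.26, chromosome 1) and Hccs (0.70) were higher. Cyct, the testis form of cytochrome c, had 0, 5 and 0 counts in Control and 45, 68 and 105 in KD-1. Of 16 genes of the citric acid cycle and its entry, 1 (6.25%) was called in each direction, Ogdhl higher (0.71) and Pcx lower (-0.69). At the adjusted p alone 8 (50%) were lower and 3 (18.8%) higher (median -0.17), against 32.6% and 30.9% of all genes.

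Heart and striated muscle, tissues rich in mitochondria, had few marker counts. Of their 7 markers 4 were tested, and the summed level was 5.93 to 6.88 CPM in Control and 17.3 to 19.7 in KD-1, with Ttn (3.56) and Myh6 (2.18) higher and Tnnt2 (-4.88) and Actc1 (-4.50) lower. Ttn alone made most of the KD-1 sum (17.5 CPM on average). Ckm and Nkx2-5 had at most 3 counts in any library. Definitive endoderm markers (2 of 5 tested) had 132.0 to 156.8 CPM in Control and 260.3 to 269.1 in KD-1, with Trh higher (1.02) and Cer1 lower (-7.93). Trh alone made most of this sum (means of 130.4 and 265.0 CPM). Of the untested markers, Sox17 had 4, 9 and 9 counts in Control and 0, 0 and 1 in KD-1, and Foxa2 and Gsc had at most 10 in any library. Endothelial and blood markers (2 of 5 tested) had 16.3 to 17.2 against 29.7 to 31.8 CPM, with Pecam1 higher (1.02) and Kdr lower (-0.83). Pecam1 alone made most of this sum (means of 14.5 and 29.4 CPM). The untested Cdh5 had 7, 8 and 21 counts in Control and 1, 1 and 2 in KD-1. Hbb-y and Gata1 had at most 15 counts in a Control library and none in KD-1.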

How the data were processed

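Bulk RNA-seq of gastruloids at day 5 (3 Control, 3 KD-1) was analysed. Per the study's methods and its processing notes, reads from TruSeq libraries were converted with bcl2fastq and quantified with Salmon (version 1.1) against a Gencode model. The genome build and the use of strand are not given in the sources used here. The authors deposited estimated counts (expected counts) per Ensembl gene, whole numbers without normalization. Columns name the group only, so libraries are named by depth.

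Names, positions, lengths and GC content were taken from GENCODE vM39 (GRCm39), which matched 35222 of 35565 rows. Length and GC content are those of a single annotated transcript per gene, and which transcripts were expressed was not examined. Genes passing filterByExpr (15110) were tested with edgeR 4.0.16 (R 4.3.3), with TMM scaling, a robust quasi-likelihood fit and Benjamini-Hochberg adjustment. The fold limits (1.5 and 0.667) are the study's. DESeq2 1.42.0 and limma 3.58.1 were alternatives. Per-length values divide counts by transcript length and scale them to the same total in every library. Pseudogene rows were aligned to members with BLAST+ 2.17.0 (at least 90% identity over at least 50% of the transcript). Replicates of a group differed by more than sampling noise. A count of 0 allows 0.143 CPM in the shallowest library and 0.0351 in the deepest, taking 3 counts as the limit, and covers counting error only. Ndufb1 was not analysed here. A member that enters the counts and medians is not reported by itself here. The fits were tested on simulated data.

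Named genes were members past the fold rule, the mitochondrial genes, the extremes of each complex, complex II, Cyc1, tissue isoforms, Atp5if1, up to 4 called genes of each other list, and 7 preset regulators. Members and lists were chosen with earlier results of these data known.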

Additional observations from a re-analysis of the deposited data

How the results depend on the processing

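No paired analysis was possible because the columns carry no replicate numbers that correspond to the sample labels. The count of members called higher was 2, where 19.7% of all genes were. It was 1 with at least 10 counts required in every library (2466 of 13140 genes tested) and 1 at a 2-fold limit. With 1 library left out it was 2 to 4, with 4 without the Control library of lowest depth (20.3% of all genes). The count called lower was 32 (18.1% of all genes), 13 at a 2-fold limit, and 23 to 41 with 1 library left out. It was 23 without the Control library of middle depth (17.3% of all genes) and 41 without that of lowest depth (19.2%). The shares of all genes at the 2-fold limit are not given here. At the adjusted p alone, 5 to 13 members were higher and 58 to 72 lower with 1 library left out, and 5 were higher without the KD-1 library of lowest depth. The shares of all genes at that limit in these settings are not given here. Of the 34 members called, 32 were also called by DESeq2 and 33 by limma-voom, among 33 and 34 calls.

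With 1 library left out, the median log2 fold change ranged from -0.54 to -0.44 for nuclear subunits, -0.28 to -0.13 for mitochondrial genes, -0.76 to -0.55 for complex I, -0.25 to -0.20 for complex II, -0.31 to -0.24 for complex III, -0.55 to -0.50 for complex IV and -0.45 to -0.36 for complex V. With length and GC content taken out, chosen after seeing the data, the medians were -0.29 (nuclear) and -0.54 (mitochondrial). By complex they were -0.36 (complex I), -0.20 (complex II), -0.30 (complex III), -0.080 (complex IV) and -0.19 (complex V). Of the 24 calls, 13 were shared with the main result. In that alternative the direction turned for Cox4i1 (0.091), Atp5f1e (0.024), mt-Nd1 (-0.13), mt-Nd4 (-0.51), mt-Atp8 (-0.33), Cox6b2 (0.42), Cox7a1 (0.43) and Cox8a (0.38). With similar pseudogene rows added, also chosen after seeing the data, the mitochondrial median was -0.052 and mt-Nd3 turned to 0.16. With library size alone the complex II median was -0.17. The log2 ratios of the mitochondrial sum and the complex II sum were 0.22 and 4e-04 per length. The cause of these shifts was not tested. Counts were high for nearly all members, so depth limits mainly the tissue isoforms and copies.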
